A study of Mus musculus with 8 samples.

Results

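The comparison set 2 siRNAs with the same labelled target against each other in the R1 line of mouse embryonic stem cells, which are pluripotent and build embryoid bodies in suspension culture. Their target, CnAβ1, comes from Ppp3cb, the gene of the Aβ catalytic subunit of calcineurin, through alternative splicing. The members were chosen by the sample titles: the 3 arrays of siRNA 1 and the 2 arrays of siRNA 2, which are 5 of the 8 arrays of the series, and the Control arrays were not used. In both groups the cells had been transfected with an siRNA against CnAβ1 and differentiated as embryoid bodies for 48 h, and total RNA was taken 48 h after transfection. Both groups thus share the line, the target, the time and the culture, and differ by the siRNA. The embryoid bodies are mixtures of cells, and neither siRNA's sequence nor any measure of the CnAβ1 protein was used here. The labels leave unsaid whether replicates came from separate cultures, and the spread that p-values measure here may be technical.

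Calcineurin is a phosphatase that calcium and calmodulin switch on, and its best known substrates are the NFAT transcription factors. CnAβ1 carries a different C-terminal end from the usual Aβ subunit. As embryoid bodies form, their outer cells turn into primitive endoderm and then visceral endoderm, an extraembryonic layer that takes up maternal proteins and secretes serum proteins such as alpha-fetoprotein, while inner cells leave pluripotency and can enter a primitive streak-like state on the way to mesoderm. An siRNA can also act on transcripts other than its target through its seed, which is why studies use more than 1 siRNA for a target and compare them.

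Alpha-fetoprotein, encoded by Afp and secreted by visceral endoderm, was the 1 gene of 22323 tested that passed the threshold of limma's test, and it was lower with siRNA 2. That call was lost with the slide as a block (limma adjusted p = 0.368), without any 1 array, and with the Control arrays in the fit. The other 40 genes of extraembryonic endoderm did not pass, and their median log2 difference, siRNA 2 minus siRNA 1, was -0.58 against -0.03 over all genes tested. Genes of the two-cell-like state had a median of -0.46, and those of the primitive streak medians of -0.26 and -0.19. Calcineurin genes, Ppp3cb included, differed by at most 0.20. Levels are given as log2 processed signal with the 75th percentile of each array set to 0.

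Because Afp and Gc, the vitamin D-binding protein gene, had the smallest p-values on the lower side and both belong to the albumin gene family on chromosome 5, the 250 bases before each start site are shown, 5′ to 3′ on the gene's strand, from RefSeq on build GRCm38.p6. The windows are in lower case throughout because neither holds any of the 3 motifs searched.
Afp, chr5:90490464-90490713, plus strand: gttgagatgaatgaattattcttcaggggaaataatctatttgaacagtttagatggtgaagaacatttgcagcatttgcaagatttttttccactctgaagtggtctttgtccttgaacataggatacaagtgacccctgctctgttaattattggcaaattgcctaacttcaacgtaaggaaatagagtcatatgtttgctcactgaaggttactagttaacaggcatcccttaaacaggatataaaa
Gc, chr5:89457899-89458148, minus strand: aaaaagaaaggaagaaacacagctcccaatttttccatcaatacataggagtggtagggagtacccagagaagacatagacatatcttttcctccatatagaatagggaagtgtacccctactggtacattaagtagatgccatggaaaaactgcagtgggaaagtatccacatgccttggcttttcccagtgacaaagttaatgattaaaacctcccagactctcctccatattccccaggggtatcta
Motifs were searched on both strands in windows of this length, which 30 of the 41 endoderm members tested and 27025 genes in all had. The forkhead motif TGTTTAC was found for 5 of 30 members against 3.54% of genes, the GATA motif AGATAA for 5 of 30 against 11.4%, and the HNF4 motif CAAAGTCCA for 0 of 30 against 0.451%. Foxa1, Apoa2, Rbp4, S100g and Cpn1 held the forkhead motif, and Foxa2, Hnf4a, Tcf21, Serpinf2 and Slc39a8 the GATA motif. Members were not picked by motif, and a match of letters is a description and not a bound site, as a window without one says nothing of the factor.

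The arrays of slide 1 stood apart, which bears on every difference below. Replicate 1 of both siRNAs lay on slide 1, replicate 2 of both on slide 3, and replicate 3 of siRNA 1 alone on slide 2. The first principal component held 59.4% of the variance and placed both slide 1 arrays at 35.8 and 33.0 and the other 3 arrays between -27.0 and -19.8. Arrays of different siRNAs on 1 slide differed by 2-fold or more in 201 genes (slide 1) and 184 genes (slide 3), whereas the arrays of siRNA 2 differed from each other in 933 genes. Within siRNA 1, replicates 2 and 3, on different slides, differed in 196 genes, and replicate 1 differed from them in 976 and 879 genes. Differences within slides 1 and 3 are therefore given beside the group differences. On each slide siRNA 1 was at array position 2 and siRNA 2 at position 3, so siRNA and position cannot be told apart. Of 43020 non-control spots, 70.7% to 75.1% were well above background on these arrays, and precision is limited by there being 5 of them. The pluripotency genes Pou5f1 and Sox2 were well above background on all 5 arrays, as were Gata6, Sox17, T, Thy1 and Col1a1. Some endoderm, streak and fibroblast markers were thus present on every array. The endoderm marker Afp was well above background on all 3 siRNA 1 arrays and on neither siRNA 2 array, while Mixl1 and Elf5 did not pass the filter.

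In limma's fit 1 gene passed an adjusted p of 0.05, which is 0.00448% of the genes tested, and it was lower, with 0 genes higher. At an unadjusted p under 0.05, 684 genes were lower with siRNA 2 (3.06%) and 176 higher (0.788%), but this split turned on the scaling: quantile normalization gave 408 lower and 397 higher, median scaling 351 lower and 527 higher. The slide block gave 1642 lower and 560 higher, array weights 1457 and 336, and the fit without siRNA 1 replicate 1 gave 1875 and 384. By group means, 68 genes were lower by at least 2-fold (0.305%) and 14 higher (0.0627%). For 2654 genes (11.9%) both siRNA 2 arrays lay below all 3 siRNA 1 arrays, and for 1630 genes (7.3%) above them. Were the arrays interchangeable, each of these outcomes would take 1 of the 10 splits of 2 against 3 arrays. Separate groups alone therefore do not mark a difference, here or for the genes below. On simulated data for this comparison, the fit recovered 83.9% of genes changed by 4-fold and 0% of those changed by 2-fold. These rates depend on the simulated spread and on how many genes were changed, so they do not set what these arrays can detect. On the arrays themselves Gc, 3.61-fold lower with siRNA 2, had a limma adjusted p of 0.511.

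Of the 41 extraembryonic endoderm members tested, 11 were among the genes lower by 2-fold, against 0.305% of all genes, and 0 among those higher, against 0.0627%. Of the 11, Afp, Serpinf2 and Apoa4 were not well above background on both siRNA 2 arrays. These genes passed the filter only through siRNA 1, where they read higher. All gene lists here were chosen with earlier results of these data known, so counts of their members are descriptions and not tests. Of the 68 genes lower, 46 have a symbol, and 33 were well above background on every siRNA 2 array. For 51 of them the groups did not overlap. On the higher side 6 of 14 did not overlap, and 1 was well above background on every siRNA 1 array. These counts do not compare how well lower and higher genes were measured. The criterion asked for every array of the dimmer group, and siRNA 1 has more arrays than siRNA 2. The genes were also chosen by the size of their difference, which bears on both overlap and dimness.

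**Figure D1:**
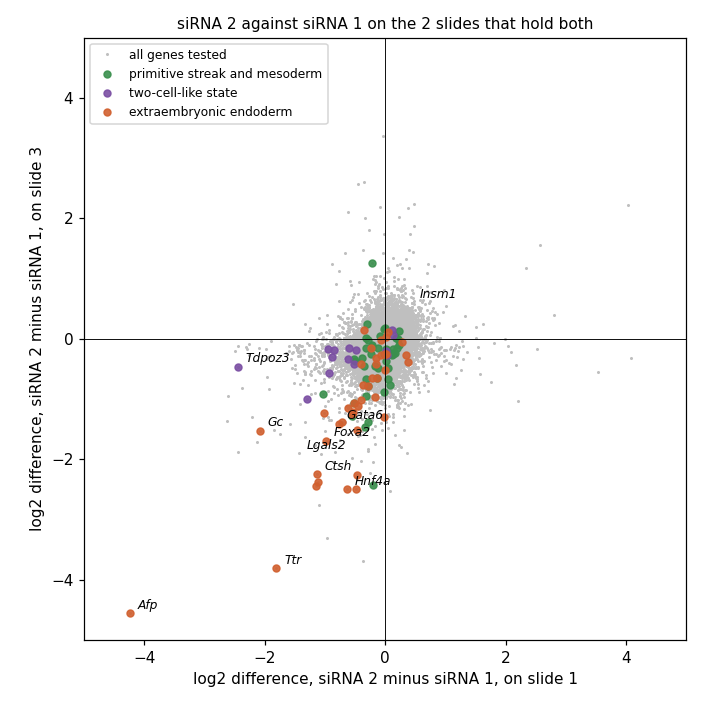
Each point is 1 gene, with the log2 difference of siRNA 2 minus siRNA 1 on slide 1 (horizontal axis) against that on slide 3 (vertical axis); grey points are all genes tested and coloured points members of 3 groups of lists. Afp, Ttr and Gc lie far into the lower left, with Afp at -4.23 and -4.56, while Hnf4a lies lower on slide 3 than on slide 1 and Tdpoz3 lower on slide 1.

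The slides are separate measurements of the same contrast, though each has 1 array a group. Over 22312 genes their differences had a Pearson r of 0.29 across genes, as a description, and 62.2% of genes had the same sign on both. Across slides, 23 genes were lower by 2-fold on both and 3 higher on both. The 23 included Afp, Gc, Ttr, Ctsh, Spink1, Sox7 and S100g among the endoderm members, and the scatter of slide 1 against slide 3 shows them in the lower left quadrant.

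Among secreted proteins of visceral endoderm, Afp read -2.80, -2.66 and -2.99 on siRNA 1 replicates 1 to 3, and -7.03 and -7.21 on siRNA 2 replicates 1 and 2. The groups lay far apart, and on neither siRNA 2 array was the probe well above background. The fitted difference was -4.31 ± 0.14 (SE, n = 2 and 3; limma adjusted p = 0.0104). Since the dimmer group was not well above background, a bound was taken. It sets the siRNA 1 mean against the lowest signal well above background on each siRNA 2 array, or the probe's own where higher. The bound is approximate, since brighter probes, such as Efcab11 at -6.18 on siRNA 2 replicate 1, were not all well above background. By this approximate bound Afp was 12.2-fold lower. With the slide as a block the difference was -4.39 and the adjusted p 0.368, with 1 residual degree of freedom. Leaving out any 1 array gave -4.40 to -4.21 with adjusted p between 0.118 and 0.265, and with the Control arrays in the fit the adjusted p was 0.691. Under normexp the difference was -1.17 (limma adjusted p = 0.219) and without background correction -1.63 (limma adjusted p = 0.09), so the call did not hold in these fits. Both fits also took median spot signals in place of processed signal, and normexp added an offset and quantile normalization. Which of these changes made the difference smaller was not tested.

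Gc read -3.61, -3.90 and -3.61 with siRNA 1, and -5.68 and -5.43 with siRNA 2. Its groups did not overlap, the spread within each was small, and the probe was well above background on all 5 arrays. The difference was -1.85 ± 0.15 (SE; limma adjusted p = 0.511), and the gene's other probe gave -1.10. Transthyretin, the carrier of thyroid hormone and retinol-binding protein encoded by Ttr, read -1.18, 0.59 and -0.58 against -2.99 and -3.22. Its siRNA 1 arrays spread widely, with replicate 2 highest, and the difference of -2.72 ± 0.53 (SE) was -1.81 on slide 1 and -3.81 on slide 3.

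Ctsh, the lysosomal protease cathepsin H, read 1.54, 2.31 and 1.63 against 0.40 and 0.06. Spink1, a secreted trypsin inhibitor, read 1.20, 2.60 and 1.30 against 0.08 and 0.22. In both genes siRNA 1 replicate 2 was the highest array and the groups were separate. Their differences were -1.60 ± 0.27 and -1.54 ± 0.45 (SE), and each had a limma adjusted p of 1.

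Apolipoproteins and their assembly factors varied among themselves. Apoa4, an apolipoprotein of lipid-rich particles, read -5.47, -4.15 and -4.30 against -5.94 and -6.41, and 1 of the 2 siRNA 2 arrays was well above background. Apob, the scaffold of these particles, differed by -1.002 ± 0.47 (SE), with -1.60 at its other probe, and its groups overlapped. Mttp, which loads lipid onto Apob, differed by -0.70 ± 0.18, and its groups did not overlap. The cholesterol-esterifying enzyme gene Soat2 stood at -0.56 and the plasma apolipoprotein gene Apom at -0.72, both with separate groups. Apoa2 (-0.29 ± 0.21, with -0.87 at its other probe) and Apoe (-0.12 ± 0.15), by contrast, had overlapping groups.

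In all, 18 of the 21 secreted and carrier genes tested stood lower with siRNA 2 (17 under median scaling), with a median of -0.70, and for 10 the groups did not overlap, against 11.9% of all genes. Unadjusted p was under 0.05 for 8 of them, against 3.06% of all genes. Afp, Serpinf2 and Apoa4, which are in both counts, passed the filter only through siRNA 1, where they read higher. Serpinf2, encoding antiplasmin, was 1.73-fold lower by the approximate bound used for Afp, since neither siRNA 2 array measured it well above background. The calcium-binding protein gene S100g differed by -1.43 ± 0.75, and its groups overlapped. Its arrays ranged from -1.60 to -0.09 with siRNA 1 and read -1.23 and -3.38 with siRNA 2. The iron carrier gene Trf (0.04), the fibrinogen chain genes Fga (0.03) and Fgg (-0.13), the carboxypeptidase gene Cpn1 (0.05), Rbp4 (-0.15), Ihh (-0.17) and Amot (-0.05, and 0.026 under median scaling) had overlapping groups. Apoa1, Alb, Fgb, Spp2 and Ctla2a did not pass the filter, and Apoc2 and Serpina1b had no named probe. Without siRNA 1 replicate 2 the median of the list was -0.55, and under normexp -0.39.

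**Figure D2:**
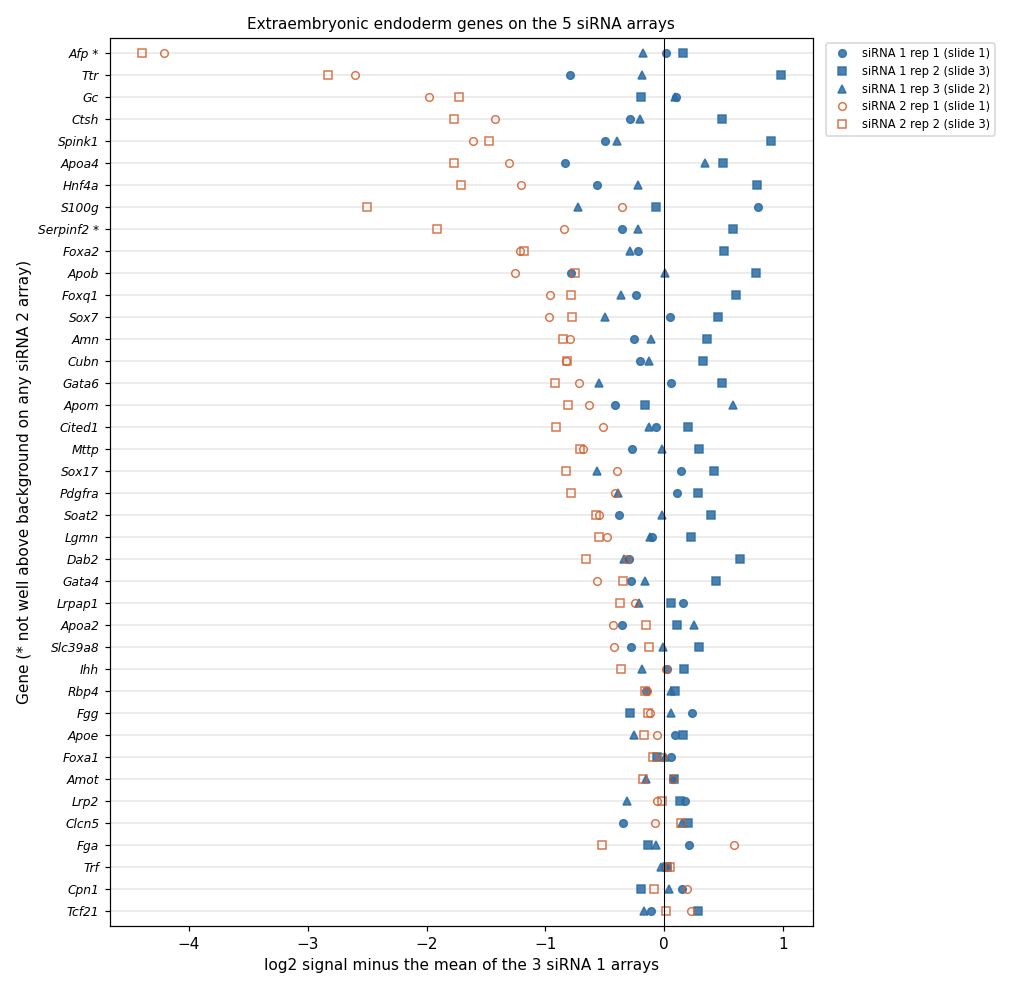
For 40 of the 41 endoderm genes tested, the log2 signal of the 5 arrays is plotted minus the mean of the 3 siRNA 1 arrays; filled blue marks are siRNA 1, open orange marks siRNA 2, and the shape gives the slide. In the upper rows both open marks lie left of all filled ones, and siRNA 1 replicate 2 (filled square) is often the rightmost; in the lower rows the marks mix.

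Transcription factors of the layer showed the same lean. Hnf4a, a nuclear receptor that drives the visceral endoderm and liver program, read -2.84, -1.49 and -2.49 against -3.48 and -3.99. The groups were separate, but the difference of -1.46 ± 0.43 (SE) was -0.64 on slide 1 and -2.50 on slide 3. Foxa2, a forkhead pioneer factor of endoderm, read -1.80, -1.07 and -1.86 against -2.79 and -2.76. Both siRNA 2 arrays sat close together below all siRNA 1 arrays, and the difference was -1.20 ± 0.26 (SE; limma unadjusted p = 0.00588, adjusted p = 1). It was -0.99 on slide 1 and -1.69 on slide 3.

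Gata6, a GATA factor that specifies primitive endoderm, read -2.38, -1.95 and -2.99 against -3.15 and -3.36. Sox7, an SRY-box factor of primitive endoderm, read -3.09, -2.69 and -3.64 against -4.10 and -3.92. The groups were separate in both, though siRNA 1 replicate 3 lay near the siRNA 2 arrays. Differences were -0.82 ± 0.31 for Gata6 and -0.87 ± 0.29 for Sox7 (SE). Sox17, the related factor, differed by -0.61 ± 0.32 and its groups overlapped. Gata4, the partner of Gata6, differed by -0.46 ± 0.24, and Foxq1, a forkhead factor, by -0.87 ± 0.32. The transcriptional coregulator gene Cited1 read 1.69, 1.96 and 1.64 against 1.25 and 0.85, a difference of -0.72 ± 0.17.

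Of 13 transcription factor and regulator genes tested, 12 stood lower with siRNA 2 (11 under median scaling, where Foxa1 turned to 0.03), with a median of -0.61. For 9 of them the groups did not overlap, against 11.9% of all genes. The median was -0.34 under normexp. The growth factor receptor gene Pdgfra, an early mark of primitive endoderm, stood at -0.60 ± 0.24 with separate groups, while Dab2, an endocytic adaptor, overlapped at -0.49 ± 0.34. Tcf21, a mesenchymal factor, was the 1 member higher (0.12 ± 0.18), and Hnf4g did not pass the filter. The median was -0.52 within slide 1 and -1.23 within slide 3, and -0.46 without siRNA 1 replicate 2.

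The endocytic receptor of visceral endoderm pairs cubilin with amnionless. Cubn read 1.30, 1.83 and 1.37 against 0.68 and 0.69, and Amn 0.22, 0.83 and 0.36 against -0.32 and -0.38. In each gene the siRNA 2 arrays nearly coincided below all siRNA 1 arrays. Their differences were alike, -0.82 ± 0.18 and -0.82 ± 0.20 (SE). Lgmn, the lysosomal protease legumain, differed by -0.51 ± 0.14 with separate groups. Lrp2, the megalin receptor that works beside cubilin, stood at -0.04 ± 0.17 and turned to 0.04 under median scaling, and the chloride exchanger gene Clcn5, whose 2 probes disagreed in sign, at 0.03. Lrpap1, the chaperone of these receptors, stood at -0.31 ± 0.14 with separate groups and the metal transporter gene Slc39a8 at -0.28 ± 0.20 with overlap, and Slc34a2 did not pass the filter. In this list 7 of 8 members were lower (6 under median scaling), 4 with separate groups against 11.9% of all genes, and the median was -0.40, or -0.22 without siRNA 1 replicate 2.

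Over the 3 endoderm lists together, 36 of 41 members tested stood lower with siRNA 2, and for 23 the groups did not overlap, against 11.9% of all genes tested. Unadjusted p was under 0.05 for 17, against 3.06%. The lists were chosen with earlier results of these data known, so these counts are a description and not a test. Afp, Serpinf2 and Apoa4 were not well above background on both siRNA 2 arrays. They passed the filter only through siRNA 1, where they read higher. Members shared their arrays, and siRNA 1 replicate 2 was high in most: the median member lay 0.29 above the siRNA 1 mean on that array, and 0.48 and 0.71 below it on the siRNA 2 arrays. In these bulk samples, fewer endoderm cells and less RNA per endoderm cell cannot be told apart. Related layers leaned less. Parietal endoderm and basement membrane genes had a median of -0.18, with 16 of 18 lower (13 under median scaling, and 57.5% of all genes) and 4 with separate groups (11.9% of all genes), among them Col4a1, a collagen IV chain (-0.61 ± 0.26), the collagen chaperone gene Serpinh1 (-0.37 ± 0.16) and Pth1r, a parathyroid hormone-related peptide receptor (-0.30 ± 0.16). The median of this list was -0.066 without siRNA 1 replicate 1 and -0.28 without siRNA 1 replicate 3. The laminin genes Lamb1 and Lamc1 lay at -0.05 and -0.13. Anterior visceral and definitive endoderm genes had a median of -0.16, with 3 of 16 separate and lower (11.9% of all genes). Foxa2, which this list shares, was among the 3 at -1.20, while Otx2, a head organiser factor, read between 4.68 and 4.79 on all 5 arrays.

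Primitive streak and mesoderm genes, the fate to which the series title assigns the differentiation, leaned lower by less. Sp5, a Wnt-induced transcription factor, read -1.47, -1.07 and -1.24 against -1.82 and -2.53. Wnt3, the ligand that starts the streak, read -1.55, -1.44 and -1.08 against -1.90 and -1.89. Nodal, the ligand of mesendoderm induction, read 3.39, 3.42 and 3.54 against 3.16 and 3.17. In each of the 3 genes both siRNA 2 arrays lay below all siRNA 1 arrays, and none passed the adjusted p.

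The differences were -0.91 ± 0.25 for Sp5, -0.54 ± 0.16 for Wnt3 and -0.29 ± 0.10 for Nodal (SE). The Wnt ligand gene Wnt8a stood at -0.41 ± 0.16, the homeobox gene Evx1 at -0.92 ± 0.35 and the caudal gene Cdx2, which trophectoderm also uses, at -0.57 ± 0.18, each with separate groups. T, the streak factor brachyury, read -4.08, -3.07 and -3.06 against -4.01 and -3.84. Its groups overlapped, since siRNA 1 replicate 1 was the lowest array, and on slide 1 it differed by 0.075. Eomes, the mesendoderm T-box factor, behaved likewise, with 0.05 on slide 1 and -0.48 on slide 3.

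Of the streak transcription factors, 16 of 21 stood lower (14 under median scaling) and 5 with separate groups, and of the ligands and receptors 21 of 25 (18 under median scaling) and 9. Of all genes 57.5% stood lower and 11.9% lower with separate groups. Mesp2, a paraxial mesoderm factor, was the 1 factor that was higher with separate groups (0.20 ± 0.11). The streak factor median moved to -0.12 under normexp. Wnt and beta-catenin targets, a list that shares Sp5, Wnt3, Wnt3a, T and Cdx1 with the streak lists, had a median of -0.23 (-0.08 without siRNA 2 replicate 1, -0.13 without siRNA 1 replicate 3) with 13 of 20 lower, of which the feedback genes Notum (-0.26) and Nkd2 (-0.22, with 0.11 at its other probe) had separate groups while Lef1 (0.06) and Tcf7 (0.14) leaned the other way. Nodal and Smad2/3 genes had a median of -0.02, FGF and ERK feedback genes one of 0.01, and BMP and Id target genes one of 0.02, and under median scaling these were 0.055, 0.089 and 0.095.

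**Figure D3:**
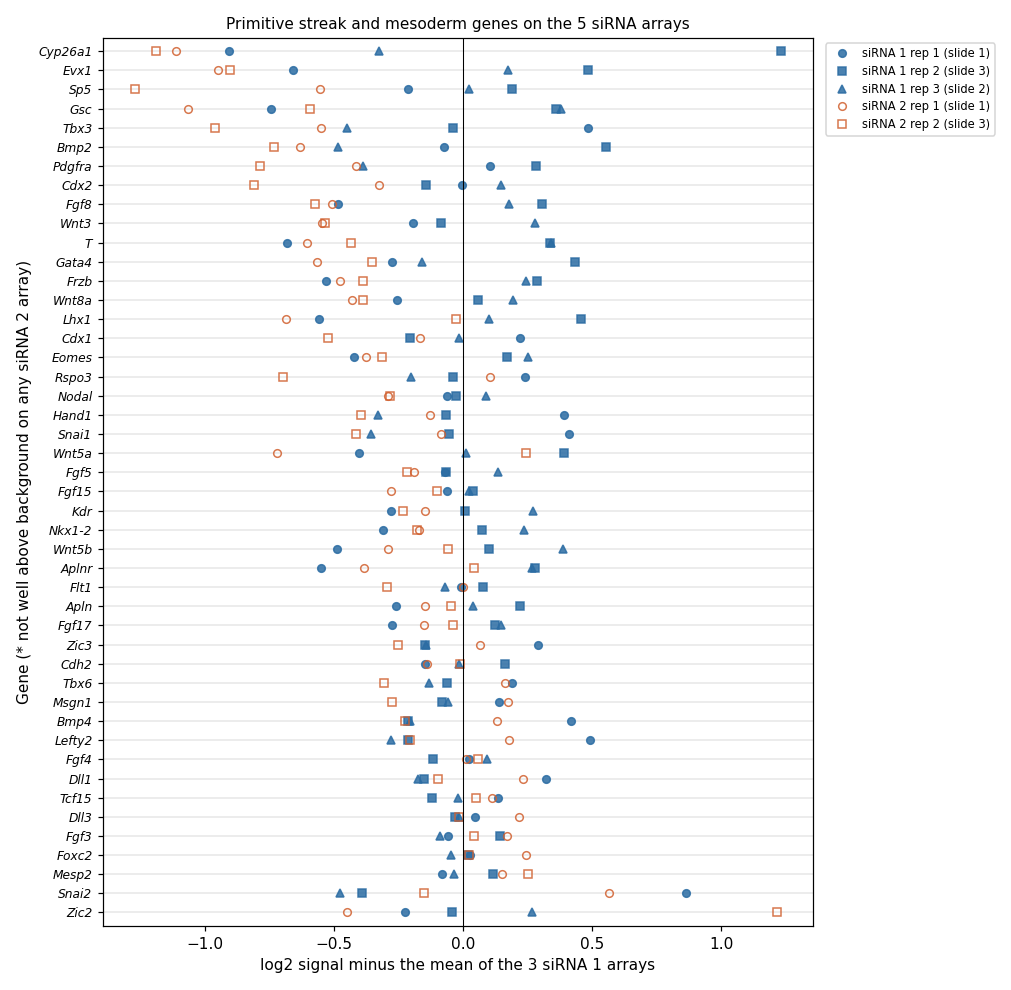
Primitive streak and mesoderm genes are plotted as log2 signal minus the mean of the 3 siRNA 1 arrays, with filled blue marks for siRNA 1, open orange marks for siRNA 2 and the shape for the slide. In rows such as Wnt3 and Nodal both open marks lie left of all filled ones, whereas in T the filled circle of siRNA 1 replicate 1 lies left of both.

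Genes of the two-cell-like state, a rare state of embryonic stem cells in which genes of the two-cell embryo are active, also leaned lower. Tcstv1, a two-cell transcript, read -4.22, -4.06 and -3.56 against -5.15 and -4.63. Zscan4f, a zinc finger factor that marks the state, read 2.86, 2.51 and 2.67 against 1.90 and 2.33. The groups were separate in both, with siRNA 2 replicate 1 lowest.

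Their differences were -0.94 ± 0.26 and -0.56 ± 0.18 (SE). The deubiquitinase genes Usp17la and Usp17lc stood at -0.53 ± 0.15 and -0.38 ± 0.11, Zscan4a at -0.52, Zscan4c at -0.40, Gm4340 at -0.41 and Tmem92 at -0.53. Tdpoz3 differed by -2.44 on slide 1 and -0.47 on slide 3, and 1 of its 2 siRNA 2 arrays was well above background. In all 12 of 14 members stood lower (11 under median scaling and under quantile normalization), 9 with separate groups (11.9% of all genes), and 8 had an unadjusted p under 0.05 (3.06% of all genes), with a median of -0.46. Tcstv3 overlapped at -0.89 ± 0.41, Arg2 stood at -0.04, Sp110 at 0.08 and Eif1a at 0.10, and 9 of the 23 genes listed were dim or unnamed here. The median was -0.61 within slide 1 and -0.24 within slide 3. Zscan4, Usp17l, Tcstv and Tdpoz members are near-identical copies, so their probes may read each other's transcripts, and the counts are uncertain for that reason. Zfp352 went with the slide: it read 0.43 and 0.44 on slide 1 and between 1.88 and 2.10 on the other arrays.

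**Figure D4:**
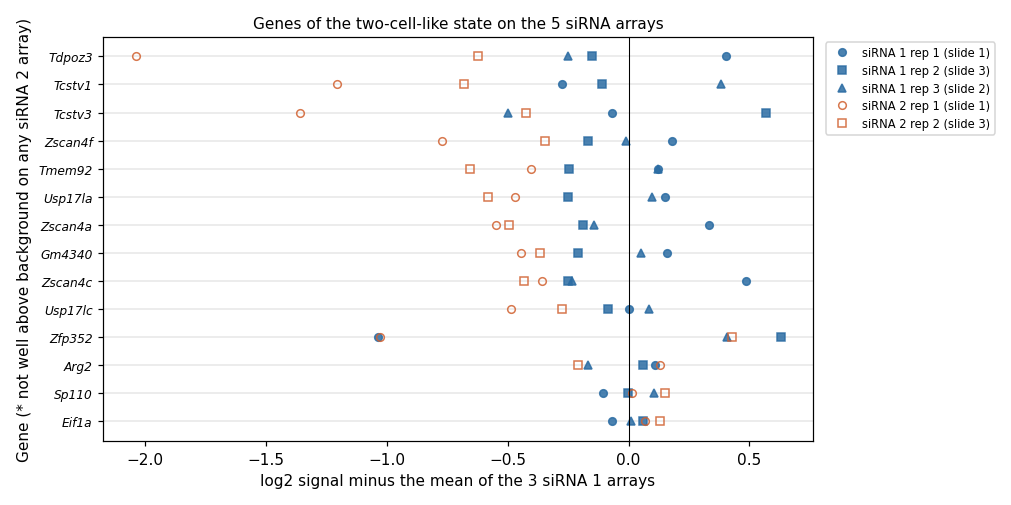
The 14 two-cell-like genes tested are plotted as log2 signal minus the mean of the 3 siRNA 1 arrays (siRNA 1 filled blue, siRNA 2 open orange, shape by slide). Open marks lie left of the filled ones in 9 of the rows, and the open circle of slide 1 is the lowest mark in rows such as Tdpoz3, Tcstv1 and Zscan4f.

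The labelled target was measured through its gene. Ppp3cb read 0.18, 0.39 and 0.61 with siRNA 1, and 0.42 and 0.62 with siRNA 2. The groups overlapped, and the difference was 0.13 ± 0.16 (SE; exact two-sided permutation p = 0.4 over 10 splits, where 0.1 is the smallest possible). It was 0.24 on slide 1 and 0.23 on slide 3. Whether the 1 probe reads the CnAβ1 variant is not given in the sources used here, so these values do not compare the knockdown of the variant. Ppp3ca, the α catalytic subunit gene, differed by 0.11 (exact p = 0.4), and Ppp3cc, the γ subunit gene, by -0.002 (exact p = 1), with values up to 0.12 under quantile normalization. Ppp3r1, encoding the regulatory B subunit, read 1.86, 1.71 and 1.88 against 1.93 and 2.10, a difference of 0.20 ± 0.11 (exact p = 0.1) with separate groups. Ppp3r2 did not pass the filter.

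Regulators and targets of calcineurin had a median of 0.03 over 14 members. Nfat5, the NFAT relative that answers to osmotic stress and lacks the calcineurin docking of its kin, stood at 0.59 ± 0.16 with separate groups. The other NFAT genes lay between -0.13 and 0.09. Rcan1, a calcineurin inhibitor whose gene NFAT induces, stood at -0.14 ± 0.14, and the calcineurin-binding protein gene Myoz1 at -0.44 ± 0.17. Genes of the small RNA machinery had a median of 0.04, with Ago2, the slicing Argonaute, at 0.23 ± 0.16. Interferon and double-stranded RNA response genes had a median of -0.04, p53 targets one of 0.03 and ATF4 and unfolded protein response genes one of 0.02. Of the 37 lists, 25 had a median that changed sign in at least 1 of the 18 alternatives, among them the calcineurin regulators, interferon, p53 and ATF4 lists, and no direction is read from those.

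Among naive pluripotency genes the median difference was unlike on slides 1 and 3, and slide and replicate number cannot be told apart here. Pou5f1, the core factor Oct4, read 4.55, 4.59 and 4.54 against 4.46 and 4.35, a difference of -0.16 ± 0.09 with separate groups. Naive genes had a median of -0.07 (0.0049 under median scaling); within slide 1 it was -0.43 and within slide 3 it was 0.0053. Tbx3, a naive and endoderm T-box factor, stood at -0.76 ± 0.30 and lower on both slides. Klf4, by contrast, read -0.55 on siRNA 1 replicate 1 and between -2.15 and -1.57 on the other 4 arrays. Formative and primed genes had a median of 0.05. Pou3f1, the formative factor Oct6, read 4.71, 4.72 and 4.70 against 4.95 and 4.995, a tight difference of 0.26 ± 0.08 (SE; limma unadjusted p = 0.0264).

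**Figure D5:**
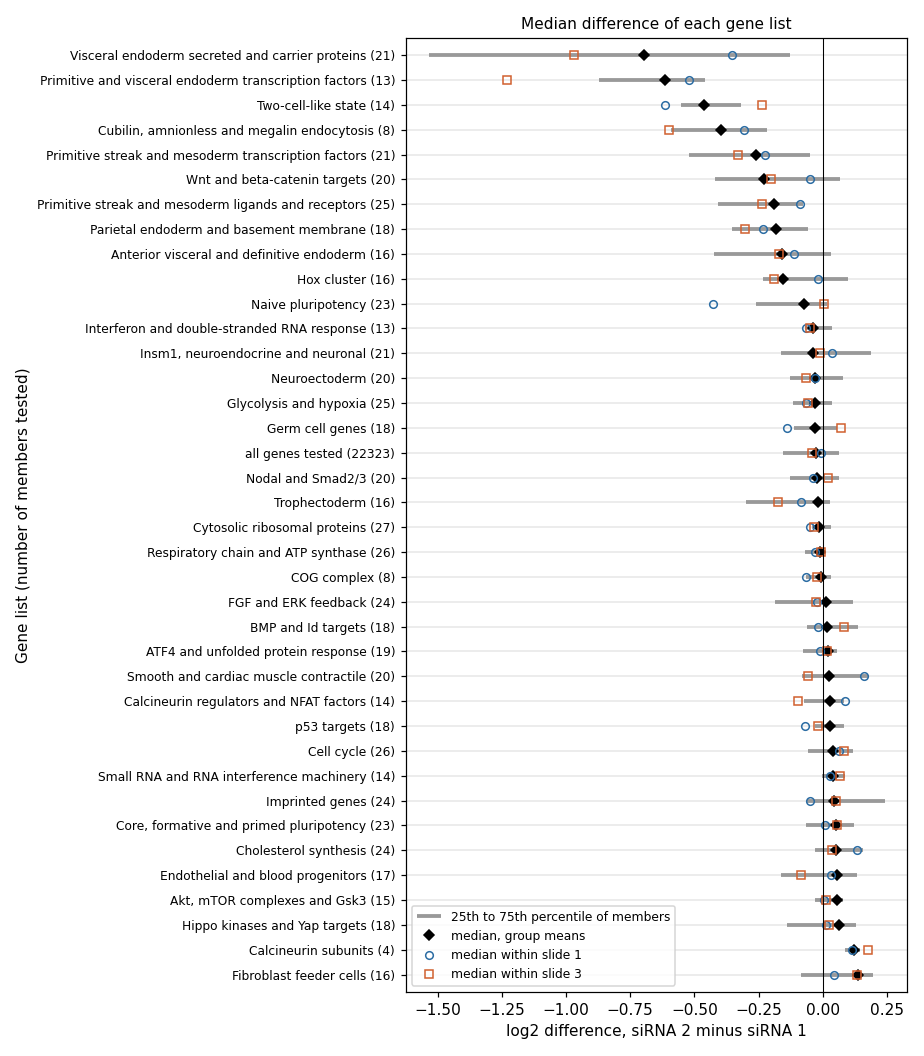
For each gene list and for all genes tested, the black diamond is the median log2 difference of siRNA 2 minus siRNA 1, the grey bar spans the 25th to 75th percentile of members, and open marks are medians within slide 1 (circle) and slide 3 (square). The 3 endoderm lists and the two-cell-like list lie farthest left, at -0.70 to -0.40, and naive pluripotency has its circle at -0.43 and its square near 0.

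Outside these lists, the named genes with the smallest p on the lower side were Gm525, Chil3 and Lgals2. Lgals2, a galectin, read -3.39, -2.93 and -2.64 against -4.82 and -4.83. Chil3, a chitinase-like secreted protein, read -3.11, -3.19 and -3.16 against -3.85 and -3.87. Both were tight within siRNA 2 and well apart from siRNA 1. The differences were -1.84 ± 0.23 for Lgals2, -0.71 ± 0.09 for Chil3 and -1.27 ± 0.12 for Gm525 (SE), and adjusted p was 1 for the first 2 and 0.961 for Gm525. The dipeptidase gene Dpp4 stood at -0.86 ± 0.15. Prss12, a serine protease gene, and Pga5, a pepsinogen gene, differed by -1.84 and -1.80 with siRNA 1 replicate 2 highest.

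On the higher side no gene passed the adjusted p. Gm16523 read -5.12, -5.23 and -5.13 against -4.31 and -4.01, a difference of 1.00 ± 0.12 (SE; limma unadjusted p = 4.11e-04, adjusted p = 1). Cck, the peptide hormone cholecystokinin, stood at 0.97 ± 0.25, at 0.97 on slide 1 and 0.81 on slide 3. Etv6, an ETS repressor, read -0.84, -0.81 and -0.86 against -0.49 and -0.48, and Taok1, a kinase, stood at 0.34 ± 0.09. The differences of Etv6 and Taok1 were small, with little spread within groups. Papln and Ugt2b35 were 1.68-fold and 1.36-fold higher by approximate bounds of the kind used for Afp, since no siRNA 1 array measured them well above background.

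Neuroendocrine and neuronal genes split. The zinc finger factor gene Insm1 read -0.42, -0.37 and -0.09 against 0.03 and 0.23, a difference of 0.42 ± 0.14, and Gap43, a growth cone protein (0.32 ± 0.10), and Prph, peripherin (0.27 ± 0.09), were also higher with separate groups. Gfra3, a GDNF family receptor (-0.40 ± 0.11), and Snap25, a synaptic SNARE (-0.28 ± 0.09), were lower with separate groups. Over the list the median was -0.04, with 13 of 21 lower (9 under median scaling, and 57.5% of all genes). With separate groups 3 were higher and 2 lower, against 7.3% and 11.9% of all genes. The median changed sign in 5 of the 18 alternatives, so no direction is read from this list.

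Markers of other cell types are given beside these results, and their part in them was not tested. Fibroblast genes, which would mark feeder cells, had a median of 0.14 (-0.013 without siRNA 2 replicate 1, 0.05 with the slide block), with 10 of 16 higher and 4 with separate groups against 7.3% of all genes, among them Loxl1, a collagen cross-linking enzyme (0.40 ± 0.10), while Col1a1 stood at -0.07. Trophectoderm genes had a median of -0.02 and neuroectoderm genes one of -0.03, which turned to 0.06 and 0.05 under median scaling. Endothelial and blood progenitor genes had a median of 0.06, which turned to -0.06 with the slide block and -0.10 without siRNA 2 replicate 1, with Lmo2, a blood progenitor cofactor, at 0.32 ± 0.12.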

How the data were processed

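Total RNA of R1 embryonic stem cells in embryoid bodies was measured on 1-colour (Cy3) Agilent arrays. The deposited scanner files hold spot intensities extracted by the authors with Feature Extraction 10.7.3.1, already background-corrected and not scaled between arrays, per the file headers. The deposited value table holds log2 values of the same arrays, centred per probe, whose siRNA columns followed their own scanner files (r of at least 0.9996), and it served as an alternative; 2 Control columns did not follow theirs (r of -0.05) and were not used from it. RMA is listed, without a role, per the submitters' processing notes. Column medians of that table lay between -0.04 and 0.02.

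Outlier and control spots were left out, spots of 1 probe averaged, and log2 processed signal was taken minus the array's 75th percentile. Unversioned accessions were matched to RefSeq symbols (GRCm38.p6): 26424 of 39429 probes have a symbol and 13005 are unnamed here. A probe was kept if well above background on every array of siRNA 1 or of siRNA 2, and the brightest probe stood for a gene, leaving 22323 genes, 14 of them with 1 array missing. limma 3.58.1 (lmFit, eBayes; R 4.3.3) compared the groups with 3 residual degrees of freedom and Benjamini-Hochberg adjustment over all genes. Calcineurin genes also got an exact permutation test. The fit was tested on simulated data over 10 draws with 200 changed genes. Python 3.11.15, pandas 2.3.3, numpy 2.4.6 and matplotlib 3.10.9 were used otherwise.

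Members and the 37 gene lists were chosen with earlier results of these data known. The rule for named genes took calcineurin subunits, the 12 smallest p per direction, the 8 largest differences per direction with separate groups and 1 sign on both slides, the 3 smallest p per list and every endoderm member. Other genes named, such as T, Eomes, Klf4, Insm1, Snap25, Zscan4f and Notum, were chosen after their values were seen. Some genes that the rule names are not reported here.

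Alternatives were quantile normalization, median scaling, normexp (offset 50) with quantile normalization, no background correction, the deposited table, other probe filters, the mean of a gene's probes, all 3 groups in the fit, a robust variance trend, array weights, the replicate number or slide as a block, and the omission of single arrays. For normexp and for uncorrected signal the files' median spot signals were used.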

Additional observations from a re-analysis of the deposited data

How the results depend on the processing

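The count of genes called was 1 under quantile normalization, median scaling, the deposited table, no filter, the probe mean, a robust variance trend and array weights. It was 0 under normexp, without background correction, with all 3 groups in the fit, with the replicate block or the slide block, without any 1 array (0 to 0), and when every array had to be well above background, which removes Afp by construction. For these arrays the replicate number is the slide, so both blocks are the same fit. Deviations from group means correlated at 0.70 between the replicate 1 arrays and 0.64 between the replicate 2 arrays, but with 2 pairs and no label on pairing the numbers were not used to pair. With 2 arrays, the siRNA 2 deviations are mirror images, so these correlations are not separate agreements. Replicate 3 of siRNA 1 correlated at 0.36 with siRNA 2 replicate 2. Each sample left alone in its group is assumed to vary like the other group.

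Genes lower by 2-fold numbered 7 under normexp, 10 without background correction, 312 without a filter, 33 with every array above background, 104 with array weights and 89 to 453 without 1 array. Genes higher by 2-fold numbered 22 under quantile normalization, 1 under normexp, 1 without background correction, 147 without a filter, 1 with every array above background and 17 to 175 without 1 array. Median scaling, which moved the median of all genes from -0.03 to 0.05, gave 1409 genes lower and 3567 higher with separate groups, and leaving out 1 array gave 3681 to 6266 lower and 2539 to 4516 higher, since fewer arrays separate more easily. The unadjusted split was 374 lower and 309 higher under normexp.

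The visceral endoderm secreted list had a median of -0.39 under normexp, -0.48 without background correction, -0.43 with every array above background and -0.83 to -0.55 without 1 array. The streak factor list had -0.18 under median scaling, -0.12 under normexp, -0.20 without background correction and -0.31 to -0.17 without 1 array. The two-cell-like list had -0.30 under normexp. None of these medians changed sign in any alternative, and the cause of their moves was not tested.

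Ppp3cc turned to 0.12 under quantile normalization, 0.075 under median scaling, 0.11 under normexp and 0.065 with the replicate block or the slide block, and ranged from -0.14 to 0.12 without 1 array. Of 161 other named genes, 151 kept their direction in all alternatives that gave them a value and 10 turned in at least 1. Under median scaling Foxa1 turned to 0.026, Amot to 0.026 and Lrp2 to 0.038. With array weights Lrp2 was 0.0053 and Clcn5 -0.081. Clcn5 was -0.042 with the probe mean, Cpn1 -0.014 without background correction and Fgg 0.018 under normexp. Leaving out 1 array gave -0.013 to 0.20 for Cog8, -0.17 to 0.52 for Sesn2, -0.36 to 0.019 for Ihh, -0.18 to 0.077 for Amot, -0.082 to 0.19 for Cpn1, -0.52 to 0.59 for Fga, -0.19 to 0.051 for Lrp2 and -0.14 to 0.14 for Clcn5.

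The fitted difference of Afp ranged from -4.40 to -1.17, and that of Gc from -1.98 to -0.55, with normexp smallest in both.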

Other observations

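Metabolic and housekeeping lists lay near the median of all genes. Cytosolic ribosomal protein genes had a median log2 difference of -0.02 over 27 members, respiratory chain and ATP synthase genes one of -0.01 over 26, and glycolysis and hypoxia genes one of -0.03 over 25, and in the last the growth factor gene Vegfa stood at -0.29 ± 0.10 (SE). Cholesterol synthesis genes had one of 0.05, with 0.13 on slide 1 and 0.04 on slide 3. Cell cycle genes had one of 0.04, with the inhibitor gene Cdkn1c at 0.32 ± 0.18.

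Smooth and cardiac muscle genes had a median of 0.02, with 6 of 20 members higher and 3 lower with separate groups, against 7.3% and 11.9% of all genes; the cardiac myosin gene Myh6 stood at 0.23 ± 0.10 and the giant sarcomere protein gene Ttn at -0.67 ± 0.26. Imprinted genes had a median of 0.05. Akt, mTOR complex and Gsk3 genes had one of 0.06, with Akt1 at 0.19 ± 0.11, and the COG complex, a Golgi tethering complex, had one of -0.01, with its 8 members between -0.10 and 0.10. None of the genes named here passed limma's adjusted p. Under median scaling the medians of these 9 lists lay between 0.05 and 0.13, so the negative ones turned, and of the 9 the cell cycle list alone kept its sign in all 18 alternatives.

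A transcript without a symbol here was 2.30-fold higher with siRNA 2, by an approximate bound of the kind used for Afp. Its probe stood well above background on both siRNA 2 arrays and on 0 of the 3 siRNA 1 arrays, so only this bound is given. It was chosen after its values were seen.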
